A study of Macaca mulatta with 60 samples.

Results

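The transcripts described here are the 63 small structural RNAs that the study's supplementary lists of BPA responses in the fetal heart name as signal recognition particle (SRP) RNA, 7SK RNA or ribosomal RNA (rRNA), out of 26149 transcripts on the array. They comprise 26 SRP RNAs, 15 7SK RNAs and 22 rRNAs, of which 21 are described as 5S rRNA and 1, ENSMMUT00000050062, as the 5' domain of the small subunit rRNA. The members were selected on measured values, because a transcript entered a list when BPA exposed and control fetuses differed in the tissue and window of that list. Only the identifier and the description were taken from the lists, and every value below was computed from the deposited arrays.

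The arrays were made from 12 female rhesus macaque (Macaca mulatta) fetuses, 3 in each of 4 groups. Every fetus gave tissue of both ventricles (left, LV, and right, RV), both atria (left, LA, and right, RA) and the skeletal muscle biceps femoris (BFM). That all tissues come from the same 12 fetuses was read from the numbers in the sample titles. In early gestation (EG), dams received fruit with BPA at 400 µg/kg body weight every day from day 50 to day 100 (EG BPA, fetuses 4 to 6) or the ethanol vehicle alone (EG control, fetuses 1 to 3). In late gestation (LG), the same dose ran from day 100 to term (LG BPA, fetuses 10 to 12), again with vehicle controls (LG control, fetuses 7 to 9). EG fetuses were taken by caesarian section and LG fetuses after vaginal delivery, so that age and mode of delivery cannot be told apart in any comparison of the windows. Levels are log2 values, a log2 fold change (LFC) is a difference between the means of 2 groups of 3 fetuses on that scale, and SD is the standard deviation over 3 fetuses.

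SRP RNA, also called 7SL, is the scaffold of the particle that binds signal sequences as they leave the ribosome and brings the ribosome to the endoplasmic reticulum. 7SK RNA holds the elongation factor P-TEFb in an inactive particle with HEXIM and LARP7 proteins and thereby restrains release of paused RNA polymerase II. 5S rRNA is a component of the large ribosomal subunit and, like 7SL and 7SK, is made by RNA polymerase III, whereas the small subunit rRNA is cut from a precursor made by RNA polymerase I. Mammalian genomes carry many dispersed copies and pseudogenes of 7SL, 7SK and 5S, and a probe for 1 annotated copy can bind RNA of another. A value below is therefore the signal of an array transcript, and which copy gave it is uncertain.

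Median log2 values of single arrays lay between 6.24 and 7.74, and tissues were normalized separately. In LV, between 71 and 810 transcripts of an array shared its lowest value, and 10 members stood there on at least 1 array, with 20 such values in all. No member stood at the lowest value of an array in RV, LA, RA or BFM. Myh6, the alpha isoform of cardiac myosin heavy chain, lay between 14.30 and 14.96 in the atria and between 6.28 and 10.60 in BFM, and in LV its mean was 6.55 in EG controls, 14.26 in LG controls and 8.88 in LG BPA. ALAS2, an enzyme of red cell precursors, had means in LG BPA fetuses and LG controls of 10.53 against 7.73 in LA, 9.69 against 8.54 in LV and 9.39 against 8.43 in RV. Myosin-11, of smooth muscle, averaged 8.06 in LA of EG controls and 6.13 in LA of EG BPA fetuses, and 6.77 and 8.51 in LV of EG and LG controls. In LA of the LG window it averaged 8.46 in controls and 9.27 in BPA exposed fetuses. Markers could be taken only from genes that the study names. The Myosin-11 difference in LA EG and the Myh6 difference in LV LG are among the BPA responses it reported, so those values were selected. The part of these genes' cell types in the members' differences was not tested.

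The 63 members held 67 entries, since 4 members stood on 2 lists. LV had 15 entries in EG (5 higher and 10 lower with BPA) and 18 in LG (12 higher and 6 lower). RV had 9 in EG (8 higher and 1 lower) and 6 in LG (2 higher and 4 lower), and LA had 8 in EG (6 higher and 2 lower) and 11 in LG (6 higher and 5 lower). RA had none in either window. Of all transcripts tested, the share called after BPA was 0.925% for LV in EG and 0.84% for LV in LG. For RV the shares were 0.615% (EG) and 0.549% (LG), and for LA they were 0.582% (EG) and 1.09% (LG). A call needs an LFC of 1 or more in either direction and an unadjusted p no higher than 0.01. The members were chosen by the same criteria, so their counts are a description with no test.

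Listed differences ranged in size from 1.02 to 5.68 with a median of 1.91, and in 65 of the 67 the 3 BPA exposed and 3 control fetuses did not overlap. Over all transcripts tested, groups did not overlap for 10.7% (EG) and 8.21% (LG) in LV, 18.6% and 4.51% in RV, and 9.07% and 10.6% in LA. The member nearest the limit on the fold was the SRP RNA ENSMMUT00000050328 (LFC 1.02 in RV EG), and the one nearest the limit on p was the 7SK RNA ENSMMUT00000050317 (limma, unadjusted p = 0.00945 in LA EG, close to the limit that selected it). Among the comparisons of LV, RV and LA, just outside lay the 7SK RNA ENSMMUT00000050420 in LA LG, with an LFC of −1.22 and an unadjusted limma p of 0.0174. In 38 of the 67 entries it was the control group, and in 29 the BPA group, whose mean lay farther from the mean of the 6 fetuses of the other window in the same tissue.

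SRP RNAs made up 27 entries, 15 higher and 12 lower with BPA. The largest listed difference of all members was that of ENSMMUT00000049939, which in LV EG read 3.64, 8.34 and 3.48 in controls and −0.46, −1.02 and −0.10 in BPA exposed fetuses (LFC −5.68). The values of fetuses 5 and 6 equal the smallest value of their arrays and are a limit of the scale rather than a level. In RV of the same fetuses it read 4.23, 6.10 and 4.21 against 3.61, 3.81 and 4.07, and in LA, RA and BFM the groups differed by −0.14, 0.28 and 0.47 on the log2 scale. ENSMMUT00000050994 had narrow groups in LV, with 5.74, 5.53 and 5.11 in LG controls and 2.46, 2.31 and 2.23 in LG BPA (LFC −3.12). The same 6 fetuses differed by 0.03 (RV), 0.26 (LA), −0.37 (RA) and 0.52 (BFM).

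The 7SK RNAs made up 17 entries, 10 higher and 7 lower. ENSMMUT00000036334, the member with the brightest signal, read 7.41, 6.12 and 6.74 in RV of EG controls and 8.61, 7.90 and 8.54 in RV of EG BPA fetuses. Its LFC was 1.60 there, against −0.74 in LV, −0.43 in LA, 0.16 in BFM and less than 0.01 in size in RA. ENSMMUT00000051032, the 7SK RNA with the lowest median rank over the 5 tissues, read 2.56, 4.58 and 1.81 in LV of LG controls and −0.13, 0.05 and −1.18 in LG BPA, a listed difference of −3.40. The values of fetuses 11 and 12 are the lowest of their arrays.

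The rRNAs made up 23 entries, 14 higher and 9 lower. The small subunit transcript ENSMMUT00000050062 read 6.94, 5.75 and 5.24 in LV of EG controls and 3.12, 4.37 and 2.36 in EG BPA (LFC −2.69). In the other chambers it was lower with BPA by −0.78 in RV, −0.71 in LA and −0.47 in RA, and in BFM the difference was 0.08. None of these 4 met the criteria. The 5S rRNA with the highest median rank over the 5 tissues, ENSMMUT00000050624, was listed in LA LG with 8.96, 8.07 and 8.84 in controls and 10.28, 10.27 and 11.02 in BPA exposed fetuses (LFC 1.90), while the same fetuses gave −0.28 (LV), −0.02 (RV), −0.63 (RA) and 0.55 (BFM).

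All 4 members that stood on 2 lists were listed with opposite signs. The 5S rRNA ENSMMUT00000038016 in LV read 3.37, 5.90 and 3.90 in EG controls, 2.34, 1.30 and 2.22 in EG BPA, 1.94, 0.09 and 0.63 in LG controls and 5.18, 5.16 and 4.52 in LG BPA. It was thus lower with BPA in EG (LFC −2.43) and higher in LG (LFC 4.07), and its LG controls, of which fetus 9 stood at the lowest value of its array, lay below all EG controls. The 7SK RNA ENSMMUT00000035137 in LA had the same signs, with an LFC of −1.68 in EG and 2.14 in LG.

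The 7SK RNA ENSMMUT00000050317 in LA ran the other way, with 6.61, 6.61 and 5.41 in EG controls and 7.73, 7.18 and 7.22 in EG BPA, then 7.24, 7.18 and 7.35 in LG controls and 5.91, 6.25 and 5.25 in LG BPA. Its LFC was 1.17 in EG and −1.45 in LG. The SRP RNA ENSMMUT00000050648 was listed in 2 chambers, higher in LA EG (LFC 1.75) and lower in LV LG (LFC −2.50). In LA its EG controls (4.14, 3.78 and 3.50) lay below the EG BPA fetuses and below the LG controls, and the LG BPA fetuses (5.22, 6.22 and 3.66) spanned both.

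**Figure D1:**
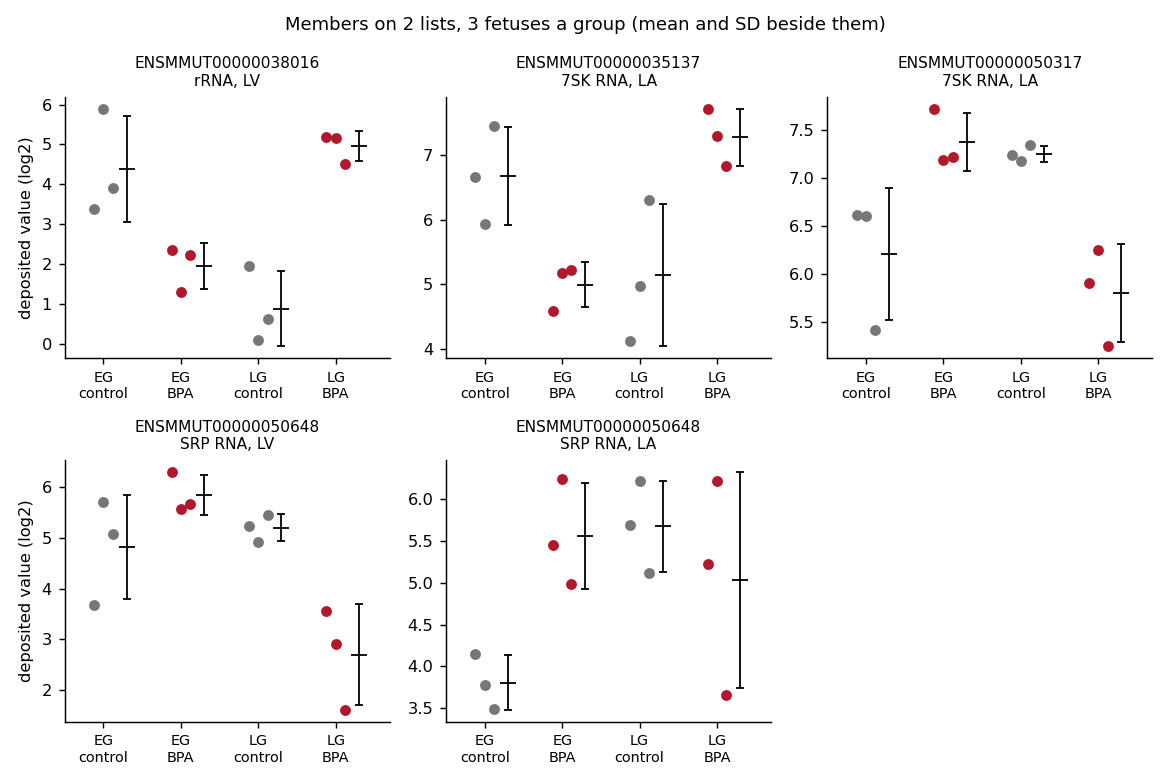
Deposited log2 values (y axis) of the 4 members that stood on 2 lists, by group (x axis), with 1 point per fetus, controls in grey and BPA in red, and the mean and SD of 3 fetuses beside the points. In each member the sign of the BPA difference in EG is opposite to that in LG where both are listed, for example −2.43 and 4.07 for ENSMMUT00000038016 in LV.

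The same fetuses were read in 4 tissues that did not choose the entry, and those arrays show how far a listed difference recurred. Of 268 pairs of an entry and another tissue in the same window, 125 (46.6%) had the sign of the listed difference, and the median over pairs, taken in the listing direction, was −0.03. By class the share was 51 of 108 pairs (47.2%) for SRP RNA, 34 of 68 (50.0%) for 7SK RNA and 40 of 92 (43.5%) for rRNA. In 5 entries all 4 other tissues had the listed sign and in 3 none had it. The mean over the other 4 tissues ran from −1.12 to 0.72 in the listing direction and reached 50% of the listed size in 1 entry. A single tissue could exceed the listed size in either direction. ENSMMUT00000050204, listed in RV LG (LFC 1.05), gave 1.79 in LV, and ENSMMUT00000050311, listed in RV LG (LFC 1.78), gave −1.88 in LV. The 5 tissues of a fetus share that fetus, so the pairs are not independent.

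**Figure D2:**
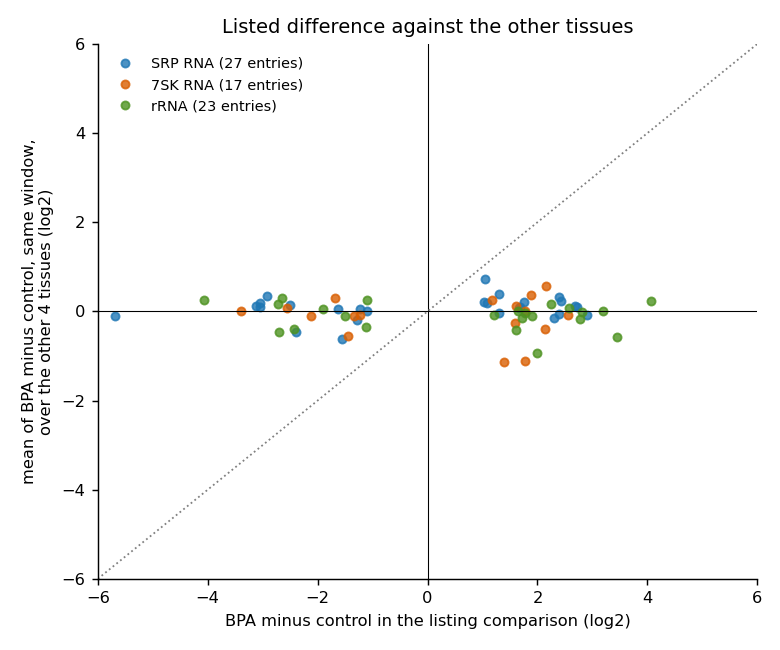
Each point is 1 of the 67 entries, with the LFC of BPA minus control in the listing comparison on the x axis and the mean LFC of the same window over the other 4 tissues on the y axis, coloured by class, with a dotted line of equality. Listed differences reach −5.68 and 4.07, and the means over the other tissues stay within 1.12 of 0. A mean over 4 tissues does not show single tissues, some of which lay farther from 0.

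In LG, 3 members had a positive difference with BPA in all 5 tissues, and each had been listed in LV LG. The 7SK RNA ENSMMUT00000050226 gave 2.16 in LV and 0.90 in RV, and its atria and BFM gave 0.69 (LA), 0.15 (RA) and 0.57 (BFM). The SRP RNA ENSMMUT00000050805 gave 2.40, 0.60, 0.12, 0.14 and 0.45 in that order, and ENSMMUT00000038016 gave 4.07, 0.38, 0.30, 0.03 and 0.20. Outside LV none of these 12 differences met the criteria. The BPA difference had 1 sign in all 5 tissues in 3 of 63 members (4.76%) in LG and in 3 of 63 (4.76%) in EG, where the shares over all transcripts were 14.2% and 9.54%.

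In comparisons that had not listed the member, BPA calls were few. The lists of LV, RV and LA hold the called transcripts of those comparisons but for 1 in LA LG, so that a member not listed there could hardly be called and its absence carries no information. The RA lists are stricter, with 13 entries in EG and 11 in LG and no entry below 1.52 in size, whereas 41 transcripts were called in each window here. Over the 4 chambers 1 of 369 pairs of a member and a comparison was called, and 15 had an unadjusted p of at most 0.05. Of these pairs 91 were in LV, 91 in RV and 83 in LA, where the lists had already taken the called ones. Neither pooled count is therefore a test. In RA 0 of 52 members tested were called in EG (background 0.439%; 1 at an unadjusted p of at most 0.05) and 1 of 52 in LG (background 0.439%).

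That member was the SRP RNA ENSMMUT00000050671, which in RA read 5.86, 5.27 and 6.62 in LG controls and 6.70, 7.24 and 7.63 in LG BPA. The lowest exposed fetus lay just above the highest control. The LFC was 1.27 ± 0.39 (SE), with a Benjamini-Hochberg adjusted p of 0.961 in limma over all transcripts tested, and the call was lost when fetus 7, 8 or 11 was left out. Without fetus 4, 6 or 12 it did not pass the filter, so the call stood in 6 of 12 such fits. In LA, which had listed it, the same fetuses differed by 1.08, and RV, BFM and LV gave −0.45, −0.06 and less than 0.01 in size.

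BFM was on no list, so its arrays chose no member. In EG 1 of 36 members tested was called (background 0.267%) and in LG 2 of 36 (background 0.825%), while 5 of the 72 pairs had an unadjusted p of at most 0.05. The SRP RNA ENSMMUT00000050254 read 5.24, 5.16 and 4.94 in EG controls and 6.59, 6.13 and 6.23 in EG BPA, with no overlap. Its LFC was 1.20 ± 0.30 (SE), with an adjusted p of 1.00 in limma, and the call was lost without fetus 4. The same EG fetuses gave −1.53 (LV), 0.12 (RV), −0.11 (LA) and −0.11 (RA), so that LV lay in the opposite direction. It had been listed as higher in LV LG, and in BFM LG it differed by 0.64.

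The SRP RNA ENSMMUT00000050204 read 5.98, 5.30 and 5.99 in BFM of LG controls and 6.76, 6.63 and 7.44 in LG BPA. The groups did not overlap, the LFC was 1.18 ± 0.35 (SE), and the adjusted p was 0.679 in limma, with the call lost without fetus 8, 10 or 12. RV, which had listed it, gave 1.05 in the same window, and the other chambers gave 1.79 (LV), 0.02 (LA) and −0.13 (RA). In BFM EG the difference was −0.48. The 7SK RNA ENSMMUT00000050311 was lower in BFM LG (LFC −2.17 ± 0.69 SE), although its controls (8.68, 6.75 and 8.30) and exposed fetuses (4.86, 7.36 and 5.00) overlapped, and it had been listed as higher in RV LG (LFC 1.78). The same fetuses gave −1.88 (LV), 0.52 (LA) and −0.91 (RA). Its adjusted p was 0.754 in limma, and the call was lost in 9 of the 12 fits that left out 1 fetus.

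The controls alone show how the members differed between LG and EG without BPA. In a tissue that had listed a member, at least 1 of the 2 control groups had also served to choose it, so values there are a description with no test. In LV 12 of 62 members tested were called (background 2.95%), 6 higher and 6 lower in LG, and all 12 had been listed in LV. In RV 6 of 53 were called (background 6.68%) and in LA 5 of 51 (background 6.78%), of which 5 and 4 had been listed in that tissue. In RA 0 of 52 were called (background 5.47%; 1 at an unadjusted p of at most 0.05), and in BFM 1 of 36 (background 26.6%).

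Of the 24 calls, 12 were higher and 12 lower in LG, 23 had control groups that did not overlap, and they fell on 22 members, which leaves 41 with none. The control groups did not overlap for 17.5% of all transcripts tested in LV and in RA, 29.0% in RV, 20.3% in LA and 59.2% in BFM. Pairs of a member and a tissue that had listed it held 21 calls among 64 tested (32.8%), where the background of those tissues averaged 4.84%. Pairs in tissues that had not listed the member held 3 calls among 190 (1.58%), where the background averaged 9.56%. By class the pairs that were not listed gave 2 of 74 calls for SRP RNA (background 9.92%), 1 of 51 for 7SK RNA (9.96%) and 0 of 65 for rRNA (8.82%). In that order 8, 1 and 3 of these pairs had an unadjusted p of at most 0.05. Other small RNAs of the same lists gave 7 of 284 for spliceosomal RNAs (background 9.71%), 2 of 148 for Y RNAs (10.3%) and 6 of 118 for small nucleolar RNAs (9.37%) in such tissues. In tissues that had listed them they gave 22 of 91 (background 5.41%), 23 of 46 (5.38%) and 10 of 42 (5.14%) in that order.

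**Figure D3:**
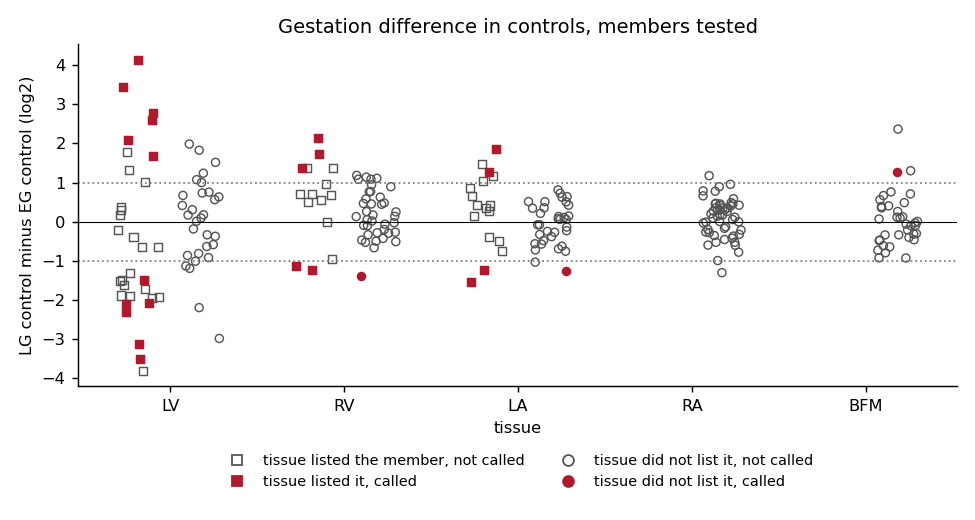
LFC of LG control minus EG control (y axis) for each member tested, by tissue (x axis), with squares for a tissue that had listed the member, circles for one that had not, filled red where called, and dotted lines at an LFC of 1 in either direction. Squares hold 21 of the 24 calls, and the circles in RA and BFM hold 0 and 1.

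Without a filter on variation, the median size of the gestation LFC over all 63 members was 1.13 for LV (0.43 over all 26149 transcripts) and 0.53 for RV (0.35). It was 0.42 for LA (0.21), 0.37 for RA (0.24) and 0.30 for BFM (0.28). Among transcripts that passed the filter the BFM medians were 0.40 for members and 0.72 for all. For LV, RV and LA the members listed in that tissue are included, and control arrays there had served to choose them. Those medians are therefore a description with no test. Among pairs of a member and a tissue that passed the filter, the median size was 1.29 where the tissue had listed the member and 0.44 where it had not. The sign was the same in all 5 tissues for 5 of 63 members (7.94%), against 19.7% of all transcripts. These were ENSMMUT00000050226, ENSMMUT00000050805 and ENSMMUT00000050204, each lower in LG, and the SRP RNA ENSMMUT00000050939 and the 5S rRNA ENSMMUT00000050288, each higher.

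The 7SK RNA ENSMMUT00000050226 was called in LV and RV. In RV, which had not listed it, EG controls read 5.99, 6.39 and 7.53 and LG controls 5.06, 5.03 and 5.65, with no overlap and means of 6.64 ± 0.80 and 5.25 ± 0.35 (SD, n = 3 each). The LFC was −1.39 ± 0.44 (SE), with an adjusted p of 0.123 in limma, and the call was lost when fetus 2, 3, 7 or 8 was left out. In LV its EG controls read 6.20, 6.30 and 6.79 and its LG controls 4.59, 3.52 and 4.95, and the other tissues gave −0.72 in LA, −0.96 in RA and −0.73 in BFM.

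The SRP RNA ENSMMUT00000050805 was called in LV and LA, and the LV call was lost without fetus 1, 3, 8 or 9. In LA, which had not listed it, EG controls read 6.84, 6.89 and 7.85 and LG controls 6.06, 5.93 and 5.83. The 2 groups did not overlap, and the LG BPA fetuses (6.09, 6.01 and 6.09) lay close to the LG controls, whereas the EG BPA fetuses read 6.72, 7.09 and 7.27. The LFC was −1.25 ± 0.34 (SE), with an adjusted p of 0.0684 in limma, and without fetus 3 it was −0.93 and no longer called. RV, RA and BFM gave −0.27, −0.42 and −0.28.

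In the controls, 3 of 36 members tested had an adjusted p of at most 0.05 for gestation in BFM, a muscle that chose no member. Over all transcripts 4505 of 8609 did, a larger share. The SRP RNA ENSMMUT00000050553 read 5.07, 5.77 and 4.63 in EG controls and 5.92, 7.38 and 6.00 in LG controls (LFC 1.27 ± 0.39 SE, limma adjusted p = 0.0172). The 5S rRNA ENSMMUT00000051013 read 5.87, 5.43 and 5.01 in EG controls and 7.11, 7.92 and 8.37 in LG controls (LFC 2.36 ± 0.83 SE, limma adjusted p = 0.0321). Each group of controls stood apart in both, but the unadjusted p of the second, 0.0153, misses the limit for a call, and its LG BPA fetuses spread from 5.65 to 9.66.

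The SRP RNA ENSMMUT00000050617 read 4.73, 5.17 and 4.93 in EG controls and 5.66, 5.60 and 5.71 in LG controls of BFM, an LFC of 0.71 ± 0.24 (SE) with a limma adjusted p of 0.0281. Its fold was below the limit for a call, and its LG BPA fetuses (5.33, 4.93 and 4.74) lay below all 3 LG controls. An exact two-sided permutation test of 3 against 3 fetuses gave p = 0.1 for each of the 3 members, the smallest value it can give. In BFM 4505 of 8609 transcripts tested had an adjusted p of at most 0.05 for gestation. ENSMMUT00000050553 passed the filter in only 5 of the 12 fits that left out 1 fetus, and it was called in each of these 5.

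**Figure D4:**
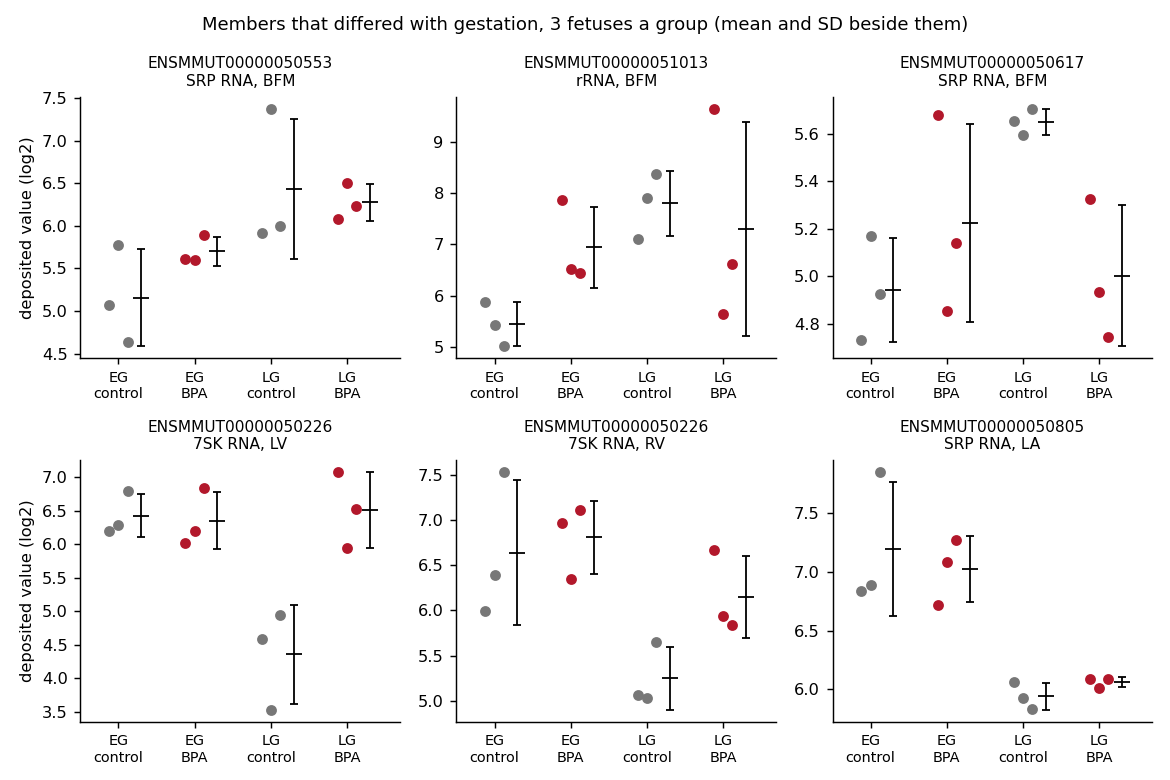
Deposited log2 values (y axis) by group (x axis), 1 point per fetus with controls in grey and BPA in red, and the mean and SD of 3 fetuses beside them, for the members named for their gestation difference. The grey groups of EG and LG do not overlap in any panel, for example 5.06 to 5.65 in LG against 5.99 to 7.53 in EG for ENSMMUT00000050226 in RV.

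Among members called in a tissue that had listed them, the largest rise with gestation was that of the 5S rRNA ENSMMUT00000050085 in LV, from 0.34, −0.81 and 2.53 in EG controls to 5.24, 4.78 and 4.46 in LG controls (LFC 4.14), with the call lost without fetus 1, 2, 7, 8 or 9. The EG value of fetus 2 equals the lowest value of its array, and RV, LA, RA and BFM gave −0.10, −0.75, 0.35 and −0.47. The largest fall among these calls was that of ENSMMUT00000038016 in LV (LFC −3.50), whose other tissues gave 0.17, −0.46, −0.48 and −0.61 in that order. ENSMMUT00000049939 had an LFC of −3.81 in LV that did not meet the limit on p. In RV the largest rise was in the 7SK RNA ENSMMUT00000036334, from 7.41, 6.12 and 6.74 in EG controls to 9.70, 9.06 and 7.95 in LG controls (LFC 2.15), where the same fetuses gave −0.59 in LV, −0.14 in LA, 0.66 in RA and −0.10 in BFM. In LA the largest rise was in ENSMMUT00000050648 (LFC 1.87), from 3.81 ± 0.32 to 5.67 ± 0.55 (SD, n = 3 each), with the call lost without fetus 2, 3, 7 or 8. The largest fall in LA among these calls was that of the 7SK RNA ENSMMUT00000035137 (LFC −1.54), whose EG and LG controls overlapped.

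The gestation change was also compared between the ventricles of the same fetuses. Of 52 members tested, 6 differed between LV and RV at the criteria for a call (background 2.15%) in the fit that leaves the pairing aside. With the fetus as a block 5 did (background 1.76%), without ENSMMUT00000050336. Each of the 6 had been listed in LV or RV, so that control arrays in the comparison had served to choose them and their values are a description with no test. The 7SK RNA ENSMMUT00000050458 rose in LV from a mean of 1.33 in EG controls to 4.77 in LG controls, and in RV the means were 4.72 and 4.42. The SRP RNA ENSMMUT00000050724 went from 7.02 to 5.52 in LV and from 6.87 to 7.63 in RV.

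The rank of a signal among all transcripts of its array depends on the probes as well as on the RNA and is given here only as a description. The median member stood at percentile 30.3 (LV), 31.1 (RV), 29.8 (LA), 30.1 (RA) and 29.9 (BFM). Medians were between 37.7 and 44.4 for 7SK RNA, between 28.2 and 32.7 for SRP RNA and between 24.7 and 32.0 for rRNA. The 7SK RNA ENSMMUT00000036334 had the highest signal, between percentile 71.5 (RV) and 88.2 (LV), and the 5S rRNA ENSMMUT00000050085, from 3.09 in LV to 6.54 in BFM, was the lowest by the median over the 5 tissues (4.16), with another rRNA below it in LV, RA and BFM. Among SRP RNAs ENSMMUT00000050724 stood highest, with a median of 56.7 over the 5 tissues, and ENSMMUT00000049939 lowest, with 14.2. The lowest 7SK RNA by that median was ENSMMUT00000051032, with 6.54.

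**Figure D5:**
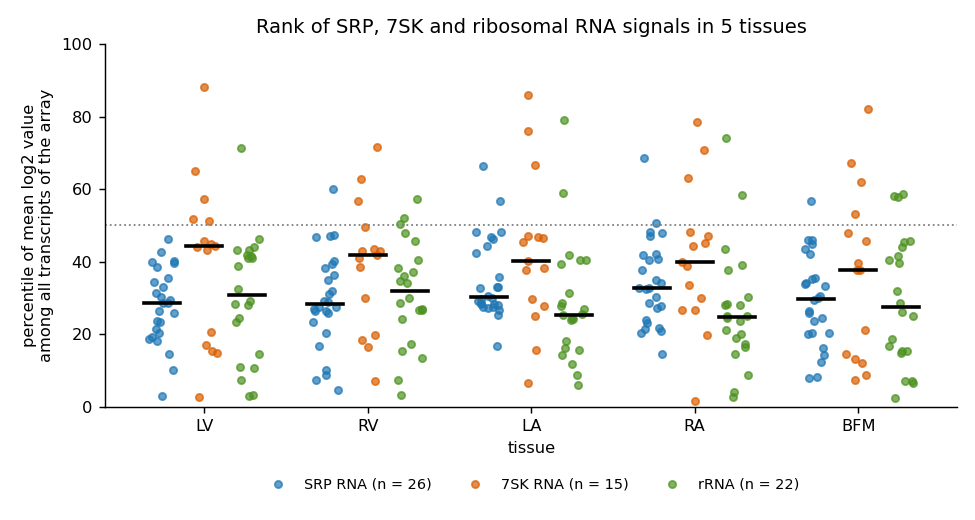
Percentile of each member's mean log2 value among all transcripts of the array (y axis) by tissue (x axis) and class, 1 point per member, with a black bar at the class median and a dotted line at the median of all transcripts. The 7SK medians lie between 37.7 and 44.4, and the medians of SRP RNA and rRNA between 24.7 and 32.7.

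One member changed rank by more than 50 percentiles between tissues. The SRP RNA ENSMMUT00000050204 stood at 14.6 in LV, 26.8 in RV and 29.3 in BFM but at 66.4 in LA and 68.5 in RA, where single fetuses read 7.99 to 8.76 and 8.06 to 9.48. In 13 of 63 members the 5 ranks lay within 10 percentiles, and the median range was 16.7. Spearman correlations of the members' ranks between tissues, over 63 members measured by the same probes, ran from 0.567 (LV and RA) to 0.904 (LA and RA), against 0.877 to 0.986 over all transcripts. Atrial cDNA was amplified before labelling and ventricular cDNA was not, so that chamber and amplification cannot be told apart between atria and ventricles.

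The spread of the members from fetus to fetus was wider than the median of the array, as it was for other small RNAs of the same lists. The median SD within groups was 1.05 in LV (0.58 over all transcripts) and 0.61 in RV (0.41), and it was 0.54 for LA (0.31), 0.66 for RA (0.34) and 0.47 for BFM (0.26). In LV it was 1.27 for spliceosomal RNAs, 1.22 for small nucleolar RNAs and 1.02 for Y RNAs. A transcript was tested in a tissue if its interquartile range over the 12 arrays there reached 0.5, and a member had to pass in the tissue that listed it. In LV 62 members (98.4%) passed, where 67.4% of all transcripts, 97.7% of the spliceosomal, 97.6% of the small nucleolar and 91.1% of the Y RNAs did, and in RV 53 (84.1%, against 46.0%). In LA 51 passed (81.0%, against 30.2%), in RA 52 (82.5%, against 35.7%) and in BFM 36 (57.1%, against 32.9%). A total of 21 members passed in every tissue and 2 in 1 tissue alone.

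The members of a class shared little of their movement from fetus to fetus. Over 12 arrays of a tissue, the median correlation between deviations of 2 members from their group means was between −0.01 and 0.08 within SRP RNA, between 0.03 and 0.07 within 7SK RNA and between −0.03 and 0.06 within rRNA. Among other small RNAs of the same lists, the highest median of a tissue was 0.06 for spliceosomal RNAs and 0.03 for small nucleolar RNAs, and Y RNAs ran from 0.08 to 0.26. Pairs above 0.7 made up 0.433% to 7.36% of the pairs within a member class.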

How the data were processed

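The authors deposited log2 values, which they had obtained from custom NimbleGen arrays with probes designed on Ensembl transcripts by RMA (background correction, quantile normalization and 1 summary value for each transcript), separately for each tissue. Ventricular cDNA was labelled without amplification and atrial cDNA after it. Scanner intensities were not used here, so the distance from background is unknown, and precision is limited by the number of arrays. Replicates are separate fetuses. The members and comparison lists were chosen with earlier results of these data known.

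Members were found by identifier and description in the study's supplementary lists, whose text was read from page images, and 2 identifiers printed with an extra digit were corrected. All 63 were in the deposited table. Columns of fold changes and p-values in those lists were not used. For each tissue, transcripts whose interquartile range was under 0.5 were removed and 1 mean for each of 4 groups was fitted with lmFit, contrasts.fit and eBayes of limma 3.58.1 (R 4.3.3), and Benjamini-Hochberg adjustment ran over all transcripts tested. Exact permutation tests used 20 splits of 6 fetuses. The fits were tested on simulated data. Python 3.11.15, pandas 2.3.3, numpy 2.4.6 and matplotlib 3.10.9 handled tables and plots.

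The named members are those on 2 lists, with an adjusted p of at most 0.05, called for gestation in 2 tissues in 1 direction, with the largest called rise or fall with gestation in a tissue, called after BPA where not listed, highest or lowest in signal in a class, the small subunit rRNA, and the smallest and largest listed difference. ENSMMUT00000050420, ENSMMUT00000050939, ENSMMUT00000050288, ENSMMUT00000050336 and ENSMMUT00000050458 were named after their values were seen, as was ENSMMUT00000034544 in the closing section. Protein partners of these RNAs were not analysed here, because transcripts could be named only from descriptions in the study's lists, and no partner was found among those.

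The sample titles give a number, tissue, window and treatment, and samples with the same number were taken to come from the same fetus. On that reading the numbers pair the tissues. The deviations from group means correlated between LV and RV with a median of 0.126 over 12 fetuses and exceeded 0.1 in 7. Alternatives were other filters, other variance and normalization settings, only the arrays of the groups compared, an adjusted p of at most 0.05, each fetus left out, and the fetus as a block.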

Additional observations from a re-analysis of the deposited data

Results flagged for a closer look

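For 6 members the gestation change in controls differed between LV and RV at the criteria for a call. All 6 had been listed in LV or RV, so control arrays in this contrast had served to choose them, and the values are a description with no test. The LV change minus the RV change was −3.67 for the 5S rRNA ENSMMUT00000038016, −3.37 for the 5S rRNA ENSMMUT00000034544 and −3.05 for the SRP RNA ENSMMUT00000050336. It was −2.73 for the 7SK RNA ENSMMUT00000036334, −2.26 for the SRP RNA ENSMMUT00000050724 and 3.74 for the 7SK RNA ENSMMUT00000050458. With the fetus as a replicate block ENSMMUT00000050336 no longer met the criteria and the other 5 did. In ENSMMUT00000050336 the change was −1.92 in LV and 1.14 in RV, and in ENSMMUT00000036334 the larger change was in RV. The count of 6 fell to 2 without fetus 7 and was highest, at 7, without fetus 4, 5 or 9. Dixon's check for an outlying sample was not run, since groups held 3 fetuses.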

How the results depend on the processing

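Single values were followed through the alternatives for 15 differences of named members, in gestation or after BPA where not listed. None of these that met the criteria reversed its direction. Listed BPA differences were not followed, and single LV minus RV differences only with the block. When an adjusted p no higher than 0.05 in limma was required, members called for gestation in controls were 0 in LV (21 at an unadjusted p of at most 0.05). They were 1 in RV, 0 in LA (10 at that p) and 2 in BFM. After BPA 0 remained in BFM (5 at that p) and in the heart where not listed (15), and 0 remained for LV minus RV (12). Over all transcripts tested, with no limit on the fold, that adjusted p was reached by 0 for gestation in LV and by 0 for LV minus RV. It was reached by 238 for gestation in RV and 197 in LA, and by at most 1 in each BPA comparison. Where 0 transcripts reached it, the members could only give 0, so those counts hold no information about them. With an interquartile range of at least 1 the counts were 2 in RV, 1 in LA and 0 in BFM for gestation, 0 in the heart and 2 in BFM after BPA, where ENSMMUT00000050311 lost its call, and 1 for LV minus RV. Apart from the block and the adjusted p, the share called over all transcripts was not computed for the alternatives or for fits without 1 fetus. A changed count is therefore no result about the members. Removal of low means gave 6 in LV and 0 in BFM for gestation. With only the arrays of the groups compared, LA had 2 gestation calls and the heart 2 after BPA, and ENSMMUT00000050553 in BFM, ENSMMUT00000050226 in RV and ENSMMUT00000050805 in LV lost their gestation calls, ENSMMUT00000051013 in BFM gained one, and ENSMMUT00000050671 in RA and ENSMMUT00000050311 in BFM lost theirs after BPA. Trend and robust settings for the prior variance left 3 in LA. With the fetus number as a replicate block, 5 members were called for LV minus RV against 6 without it, with ENSMMUT00000050336 lost (background 1.76%), and the block changed no other result, since all others lie within a tissue.

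Leaving out 1 fetus, gestation calls ranged from 6 (without fetus 8) to 13 in LV, 2 (without fetus 2) to 7 in RV, 1 (without fetus 3 or 8) to 6 in LA, 0 to 2 (without fetus 9) in RA and 0 (without fetus 3, 4, 5, 8 or 12) to 2 (without fetus 10) in BFM. RV also fell to 3 without fetus 7, and LA to 3 without fetus 1, 2, 5, 6, 10, 11 or 12. BPA calls ranged from 1 (without fetus 4) to 4 in BFM and from 1 to 3 (without fetus 4) in the heart where not listed, with 2 without fetus 5, 8 or 9. LV minus RV ranged from 2 (without fetus 7) to 7. Groups of 3, a floor in LV and the unknown copy behind each probe limit these values.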
